A study of Mus musculus with 4 samples.

Results

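Interferon regulatory factors (Irfs) are the transcription factors described here in bone marrow and spleen of mice carrying MLL-AF9 (MA9) acute myeloid leukemia, with and without knockdown (KD) of Prmt9 in the leukemia cells. The 7 members Irf1, Irf2, Irf4, Irf5, Irf7, Irf8 and Irf9 were chosen by name out of 32285 genes in each matrix, and their raw unique molecular identifiers (UMIs, counts of captured mRNA molecules) were summed over the cells of each marker-gated cell type in each library. MA9 cells express the fusion of Mll with Af9, and the study's methods give them a doxycycline-inducible short hairpin, either against Prmt9 (shPrmt9) or a control (Ctrl), before transplantation into wild-type mice. Recipients were C57BL/6J, 6 to 8 weeks old per the labels, and all of them, controls included, drank doxycycline for 7 days. By the study's methods only the MA9 cells were given the hairpin, and the libraries do not separate donor from recipient cells in the other gates. The bone marrow (BM) groups BM-Ctrl and BM-shPrmt9, and for the spleen Spleen-Ctrl and Spleen-shPrmt9, are 1 library each, described by the study as cells of a representative mouse. The libraries address how immune cells of the host differ when Prmt9 is reduced in the leukemia. No comparison between groups therefore has a replicate, no test was possible, and all intervals below are 95% intervals that cover counting error only.

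Irfs share an N-terminal DNA-binding domain that recognizes GAAA repeats of the interferon-stimulated response element (ISRE). Irf7, with its relative Irf3, drives transcription of type I interferon genes after nucleic acid sensing, and is itself induced by interferon. Irf9 is the DNA-binding subunit of the ISGF3 complex, which also holds Stat2 and binds the ISRE after type I interferon signaling. Irf1 is induced by interferon-γ through gamma-activated sites (GAS) and activates target genes, whereas Irf2 largely opposes it. Irf5 acts downstream of Toll-like receptors in macrophages. Irf4 and Irf8 are lineage factors: Irf8 directs monocyte and dendritic cell (DC) development and restrains granulocyte formation, and Irf4 is needed for plasma cells and for activated T cells.

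The upstream sequences of 4 members are shown because these genes differ in the 2 response motifs, the ISRE core (GAAA, any 2 bases, GAAA) and the GAS (TTC, any 3 bases, GAA), both searched on both strands. No match overlapped another. The sequences are from RefSeq on GRCm38.p6, read 5′ to 3′ on the strand of the gene, and end where the gene begins in GENCODE or RefSeq. Capitals mark the motif matches. RefSeq windows were found for 7 of the 7 members, though those of Irf5 and Irf9 began inside the annotated gene.
Irf1 (chr11:53769764-53770013, plus strand): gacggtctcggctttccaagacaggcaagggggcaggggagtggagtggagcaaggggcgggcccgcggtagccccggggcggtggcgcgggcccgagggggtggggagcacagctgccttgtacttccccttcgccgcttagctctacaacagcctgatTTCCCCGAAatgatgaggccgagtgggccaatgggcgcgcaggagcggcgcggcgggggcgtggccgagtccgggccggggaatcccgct
Irf2 (chr8:46739495-46739731, plus strand): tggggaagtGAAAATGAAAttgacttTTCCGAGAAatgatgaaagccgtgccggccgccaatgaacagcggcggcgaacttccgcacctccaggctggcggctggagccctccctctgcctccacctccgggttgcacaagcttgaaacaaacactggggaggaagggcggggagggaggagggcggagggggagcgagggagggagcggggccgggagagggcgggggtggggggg
Irf8 (chr8:120736108-120736357, plus strand): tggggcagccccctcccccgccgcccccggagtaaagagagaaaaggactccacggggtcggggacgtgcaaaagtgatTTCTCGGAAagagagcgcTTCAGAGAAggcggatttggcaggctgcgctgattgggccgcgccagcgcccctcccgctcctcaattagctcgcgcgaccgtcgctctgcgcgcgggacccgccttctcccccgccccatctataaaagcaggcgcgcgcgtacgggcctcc
Irf7 (chr7:141266500-141266674, minus strand): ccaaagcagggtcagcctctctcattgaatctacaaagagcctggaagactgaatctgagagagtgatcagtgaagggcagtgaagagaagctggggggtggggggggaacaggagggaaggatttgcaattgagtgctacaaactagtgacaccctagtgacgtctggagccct
The window of Irf1 held 1 GAS match that ended 81 bases before the gene, Irf8 held 2 GAS matches, and Irf2 held 1 ISRE core and 1 GAS match. Neither motif matched in the window of Irf7 or in the 250-base window of Irf4. Neither matched in the windows of Irf5 and Irf9, but these hold no sequence before the annotated gene. Among 32851 RefSeq windows of 250 bases, 2.98% held the ISRE core and 7.02% the GAS motif. These matches describe letters in these windows, and binding was not measured.

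On GRCm38 the gene bodies lie at chr11:53770014-53778374 (Irf1), chr8:46739732-46847458 (Irf2), chr13:30749226-30766976 (Irf4), chr6:29526625-29541871 (Irf5), chr7:141262706-141266481 (Irf7), chr8:120736358-120756694 (Irf8) and chr14:55603571-55610030 (Irf9). Irf8 and Irf9 share their strand with an annotated protein-coding gene, Gm20388 and Rnf31 in that order, and reads in shared exons cannot be assigned to one gene, so these levels are less certain.

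The 4 libraries held 8648 to 11315 barcodes and 84009744 to 188030429 UMIs, and barcodes with under 200 detected genes or over 20% of UMIs from mitochondrial genes were dropped. Marker gates placed 91.7%, 91.7%, 89.6% and 72.6% of the remaining cells (marrow Ctrl and shPrmt9, then spleen Ctrl and shPrmt9) in 16 cell types, none of whose markers is an Irf. Prmt9, the target of the hairpin, was 10.9 CPM (UMIs per 1000000 UMIs of the gate) in BM-Ctrl MA9-like cells and 6.21 CPM in BM-shPrmt9, a ratio of 0.569 (0.513 to 0.63), and in the spleen it was 18.5 and 3.5 CPM from 22 and 3 UMIs. Its interval also lay below 1 in marrow immature neutrophil-like cells (ratio 0.685, 0.557 to 0.846) and in splenic CD4 T-like (0.512, 0.358 to 0.731), CD8 T-like (0.66, 0.523 to 0.831) and mature B-like cells (0.779, 0.658 to 0.918). MA9-like cells of the marrow libraries also differed in their own markers, with Lin28b at 28.7 and 0.508 CPM and Ms4a3 at 9.77 and 500 CPM, and their median depth was 59878 and 57295 UMIs. Outside the MA9-like gate, Y-linked genes gave 0 and 1 UMIs in the Ctrl and shPrmt9 marrow and 15610 and 10194 UMIs in the spleens, so marrow and spleen cells did not come from the same animals, and tissue and animal cannot be told apart. The X-linked gene Xist was 17 and 235 CPM in those cells of the Ctrl and shPrmt9 marrow, and 0.164 and 0.0798 CPM in the spleens. The marrow libraries thus also differed from each other in Xist, and the reason was not tested. Between 15 and 35 cell barcodes were shared by any pair of libraries, at most 0.405% of either. A gate was compared between Ctrl and shPrmt9 where both libraries had at least 20 of its cells, which held for 10 cell types in each tissue. A member was compared where both libraries together gave at least 20 UMIs, and it was counted as higher or lower when its CPM ratio, shPrmt9 over Ctrl, was at least 2 or at most 0.5.

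In the control libraries the 7 members divided the cell types by level, on the CPM scale. Irf8 had the widest span in CPM in both control libraries. In BM-Ctrl its level was 2740 CPM in plasmacytoid DC-like cells, 1670 CPM in NK-like cells and 411 CPM in mature B-like cells, and these 3 did not overlap in their intervals. It was 225 CPM in precursor B-like, 192 CPM in classical monocyte-like and 152 CPM in macrophage and non-classical monocyte-like cells, of which neighbours overlapped (51.4% of the macrophage UMIs came from 1 cell), and 10.6 to 39.3 CPM in the other gates. Spleen-Ctrl gave the same leading gate among those it held, with NK-like cells at 1180 CPM ahead of mature B-like cells at 709 CPM and conventional DC-like cells at 557 CPM. In the spleen the conventional DC-like gate rested on Fscn1, Flt3 and Zbtb46, and Xcr1, Cd209a, Clec10a and Itgax were at 0 UMIs there.

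Irf4 was highest in the B-like gates of BM-Ctrl. Precursor B-like cells of BM-Ctrl had 114 CPM and mature B-like cells 49.2 CPM, classical monocyte-like cells had 14 CPM, and the other gates with a UMI were at 0.346 to 8.13 CPM with overlapping neighbours. In Spleen-Ctrl, conventional DC-like cells at 72 CPM and mature B-like cells at 51.4 CPM overlapped, and CD4 T-like cells followed at 28.5 CPM. Irf5 was highest in the mononuclear phagocytes, at 191 CPM in classical monocyte-like and 157 CPM in macrophage and non-classical monocyte-like cells of BM-Ctrl, and at 244 and 205 CPM in conventional DC-like and macrophage and non-classical monocyte-like cells of Spleen-Ctrl. Erythroid-like cells of BM-Ctrl had 3.76 CPM of Irf5.

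Irf1, Irf2 and Irf9 had UMIs in every gate of the control libraries with enough cells. Irf1 ran from 12 to 147 CPM in BM-Ctrl and from 57.2 to 1010 CPM in Spleen-Ctrl, where mature neutrophil-like cells were highest. Irf2 ran from 30.8 to 240 CPM and from 32.8 to 394 CPM in the same libraries, and Irf9 from 22.6 to 146 CPM and from 23.5 to 162 CPM. Irf7 ranged from 9.03 CPM in MA9-like cells to 207 CPM in plasmacytoid DC-like cells, which specialize in type I interferon production, in BM-Ctrl, and the next gate, classical monocyte-like cells, was at 71.3 CPM. In Spleen-Ctrl Irf7 was between 13.2 CPM in NK-like and 151 CPM in mature neutrophil-like cells. Of 9 gates held by both control libraries, the spleen interval lay above the marrow interval in 8 for Irf1, 6 for Irf2 and Irf8, 5 for Irf7, 4 for Irf9, 2 for Irf4 and 1 for Irf5, and below it in 1, that of Irf8 in NK-like cells.

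**Figure D1:**
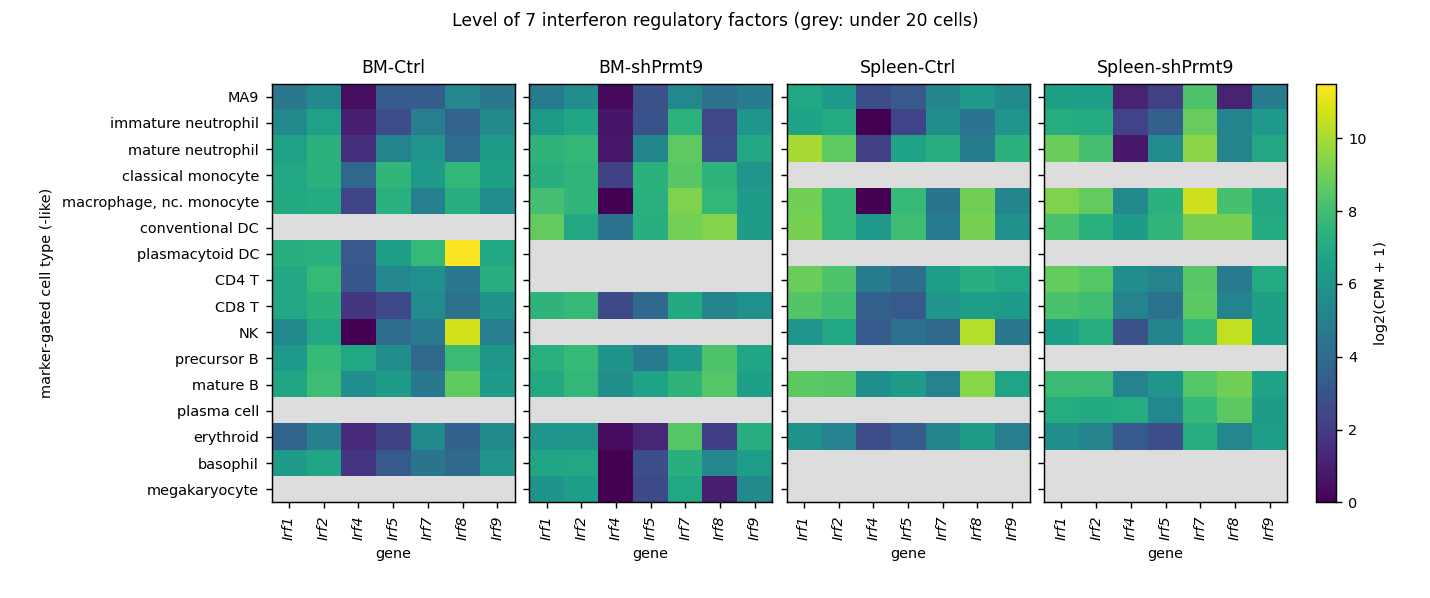
Levels of the 7 members as log2(CPM + 1), color scale, with 1 panel per library, genes in columns and marker-gated cell types in rows, grey where a library had under 20 cells of the gate. The Irf8 column is brightest in plasmacytoid DC-like and NK-like cells, and the Irf7 column is brighter in both shPrmt9 panels than in the Ctrl panels.

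Irf7 was higher in shPrmt9 in 10 of 10 cell types of the marrow and 10 of 10 of the spleen. Among myeloid cells of the marrow, mature neutrophil-like cells had 62.5 CPM in BM-Ctrl and 401 CPM in BM-shPrmt9, a ratio of 6.41 (6 to 6.86), in a gate where 3.86% of 11269 compared genes were at least 2-fold higher. Immature neutrophil-like cells had 29.5 and 174 CPM, a ratio of 5.89 (5.28 to 6.58), against 5.32% of genes. Classical monocyte-like cells had 71.3 and 361 CPM (ratio 5.06, against 5.76% of genes), and macrophage and non-classical monocyte-like cells had 30.5 and 618 CPM from 7 and 538 UMIs (ratio 20.3, 9.77 to 50.6, against 19.1% of genes). Intervals of the paired libraries did not overlap in any of these gates. In MA9-like cells, the gate of the cells given the hairpin, the level was 9.03 CPM in BM-Ctrl and 39.9 CPM in BM-shPrmt9, a ratio of 4.42 (4.11 to 4.76) against 12.3% of genes, and both were the lowest Irf7 levels of their library.

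Lymphoid, erythroid and basophil gates of the marrow gave the same direction. Mature B-like cells had 24.3 and 176 CPM of Irf7 (ratio 7.25, 5.62 to 9.36, against 4.36% of genes), precursor B-like cells 13.4 and 73.9 CPM (ratio 5.51, 2.93 to 10.7, against 3.47%), and CD8 T-like cells 45.3 and 125 CPM. In the mature B-like gate, of 890 and 60 cells, Fcer2a was 98.4 and 1.28 CPM, Ighd 495 and 112 CPM and Ms4a1 808 and 1110 CPM. Its make-up thus differed between the libraries, and the part of this in the Irf7 ratio was not tested. In the precursor B-like gate, of 198 and 45 cells, Vpreb2 was 181 and 12.7 CPM and Rag1 235 and 130 CPM, but Igll1 was 455 and 494 CPM. The part of these marker differences in the member ratios of that gate was not tested. The CD8 T-like ratio of 2.76 (2.04 to 3.76, against 4.22%) was the smallest of the marrow. Erythroid-like cells had 44.4 and 349 CPM (ratio 7.85, 6.77 to 9.15, against 14.2%), and basophil-like cells 20.8 and 146 CPM (ratio 6.99, 4.25 to 12.3, against 4.4%). Of the 29 UMIs in precursor B-like cells of BM-shPrmt9, 34.5% came from 1 cell.

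The spleen spanned a wider range. Macrophage and non-classical monocyte-like cells had 21 CPM from 5 UMIs without and 1600 CPM from 896 UMIs with the knockdown, a ratio of 76.3 (32.6 to 236), where 21.2% of genes were at least 2-fold higher. The macrophage markers Slc40a1, at 58.7 and 370 CPM, and Vcam1, at 21 and 155 CPM, were also higher there, so the make-up of this gate differed between the libraries, and its part in the Irf7 ratio was not tested. Conventional DC-like cells had 25 and 557 CPM (ratio 22.2, 11.1 to 52, against 19.2% of genes) and NK-like cells 13.2 and 204 CPM (ratio 15.4, 9.63 to 26.3, against 9.09%). Mature B-like cells had 33.3 and 353 CPM, a ratio of 10.6 (10.1 to 11.2), against 4.08% of genes. In this gate the follicular B cell receptor gene Fcer2a was 69.1 and 3.97 CPM and Ighd 585 and 140 CPM, so B cell subsets differed as well.

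CD8 T-like cells of the spleen had 62 and 389 CPM of Irf7 (ratio 6.27, 5.82 to 6.77, against 4.44% of genes), and CD4 T-like cells 85.5 and 366 CPM (ratio 4.28, 3.8 to 4.84, against 4.25%). MA9-like cells, of which the spleen libraries held 25 and 23, had 36.2 and 315 CPM (ratio 8.71, 6.3 to 12.3, against 8.56%). Immature neutrophil-like cells had 52.8 and 448 CPM (ratio 8.49, 5.82 to 12.9, against 14.4%), mature neutrophil-like cells 151 and 731 CPM (ratio 4.84, 3.57 to 6.72, against 8.22%) and erythroid-like cells 35.1 and 142 CPM (ratio 4.05, 3.23 to 5.15, against 13.1%). In the immature neutrophil-like gate, of 24 and 302 cells, Fcnb was 494 and 109 CPM and Chil3 295 and 2350 CPM. Its make-up thus differed between the libraries, and the part of this in the Irf7 ratio was not tested. In none of the 20 gates did the intervals of the Ctrl and shPrmt9 libraries overlap. The Irf7 ratio exceeded that of at least 96.5% of the compared genes in each marrow gate and at least 97.2% in each spleen gate.

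Cells rather than UMIs gave the same direction. After thinning each cell to 2000 UMIs, Irf7 was detected in 10.1% (9.11% to 11.3%) of mature neutrophil-like cells of the marrow Ctrl library and 52.5% (51.1% to 54%) of the shPrmt9 library, with exact binomial intervals, leaving out 340 and 92 shallower cells (unthinned 18.9% and 84.3%). In MA9-like marrow cells the thinned shares were 1.16% (0.698% to 1.8%) and 7.4% (6.12% to 8.85%; unthinned 33.9% and 74.9%), with 0 and 1 cells left out. In splenic mature B-like cells they were 7.35% (6.7% to 8.05%) and 53.3% (50.2% to 56.5%; unthinned 21.2% and 96.7%), with 47 and 3 left out. No cell type here is known to lack Irf7, so no background share was at hand. RNA of neutrophils in other gates was followed with the neutrophil gene S100a8. Outside the neutrophil gates of BM-shPrmt9 it reached 0.797% to 8.25% of its level in mature neutrophil-like cells, and Irf7 reached 9.95% to 154% of its own level there. In Spleen-shPrmt9 the ranges were 0.132% to 22.5% for S100a8 and 19.4% to 219% for Irf7. The ends of these ranges come from different gates. S100a8 follows RNA of neutrophils only, so Irf7 RNA carried over from other cell types was not tested.

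**Figure D2:**
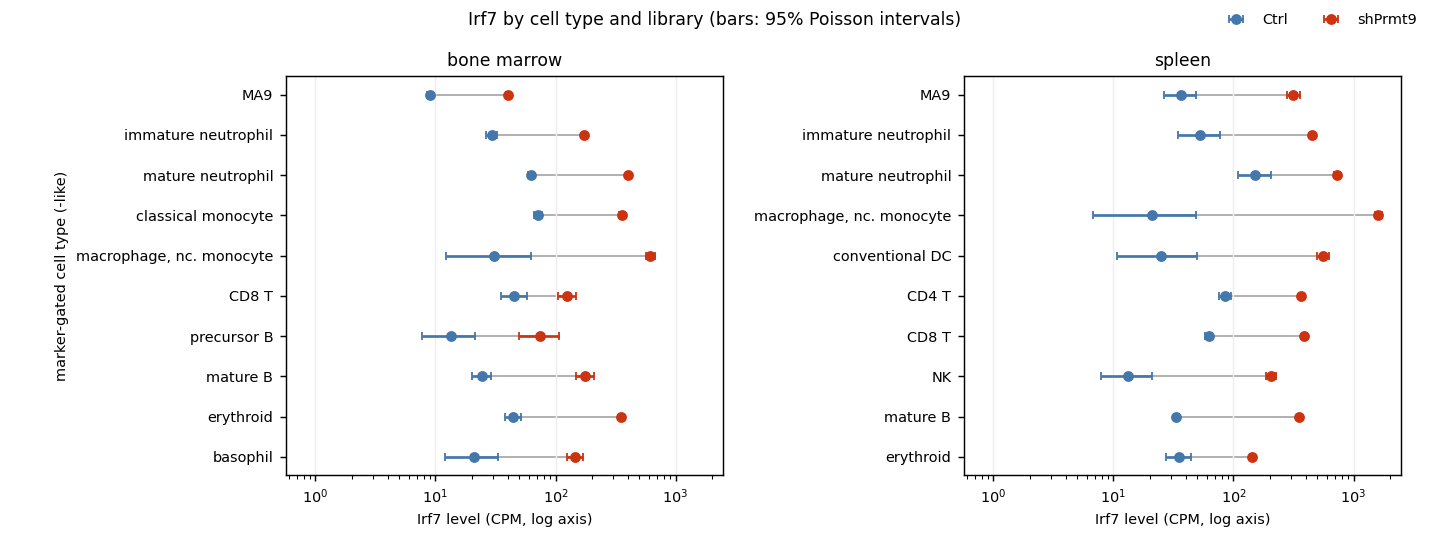
Irf7 level in CPM (log axis) by marker-gated cell type in bone marrow and spleen, with Ctrl in blue, shPrmt9 in red and bars for 95% Poisson intervals. The shPrmt9 point lies to the right of the Ctrl point in all 20 gates, with the longest gap in splenic macrophage and non-classical monocyte-like cells, from 21 to 1600 CPM.

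The other 6 members did not share this pattern. Over the 70 pairs of member and cell type in each tissue, 65 could be compared in the marrow and 67 in the spleen, and 17 and 20 of them were at least 2-fold higher in shPrmt9. Irf7 supplied 10 in each tissue, which left 7 of 55 in the marrow and 10 of 57 in the spleen for the other members, or 12.7% and 17.5%. Over the gates of the same pairs, a mean of 7.56% and 10.8% of all compared genes were at least 2-fold higher, with single gates between 3.47% and 19.1% in the marrow and between 4.08% and 21.2% in the spleen. In the marrow the member calls were Irf1, Irf2 and Irf9 in erythroid-like cells, Irf1 in precursor B-like and in macrophage and non-classical monocyte-like cells, Irf5 in CD8 T-like and Irf8 in basophil-like cells. In the spleen they were Irf2, Irf4 and Irf9 in macrophage and non-classical monocyte-like cells, Irf9 in conventional DC-like, NK-like and erythroid-like cells, Irf4 and Irf5 in CD8 T-like cells, and Irf5 in CD4 T-like and immature neutrophil-like cells. At least 2-fold lower were 8 pairs in the marrow and 5 in the spleen, or 14.5% and 8.77% of the pairs compared for the other members. Over the gates of the same pairs, a mean of 6.26% and 8.39% of all compared genes were at least 2-fold lower. The median log2 ratio of the compared members lay between -0.16 and 1.47 in the marrow gates and between -0.47 and 1.08 in the spleen gates, where the medians of all compared genes lay between -0.32 and 0.3 and between -0.25 and 0.32.

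Lower calls in the marrow were read against the share of genes at least 2-fold lower in each gate. MA9-like cells had 1 of 7 compared members lower, Irf8 (6.88% of genes), immature neutrophil-like cells 1, Irf8 (6.6%), mature neutrophil-like cells 2, Irf4 and Irf8 (7.75%), and classical monocyte-like cells 1, Irf4 (8.2%). Precursor B-like cells had 1 lower, Irf5 (6.54%), and erythroid-like cells 2 of 6, Irf5 and Irf8 (2.07%). No member was lower in macrophage and non-classical monocyte-like (5.83%), CD8 T-like (4.07%), mature B-like (9.14%) or basophil-like cells (3.44%). In the spleen, MA9-like cells had 1 of 5 lower, Irf8 (13.4%), mature neutrophil-like cells 2 of 6, Irf1 and Irf5 (15.3%), and CD4 T-like (9.51%) and CD8 T-like cells (7.61%) 1 of 7 each, Irf8. No member was lower in immature neutrophil-like (4.19%), macrophage and non-classical monocyte-like (8.32%), conventional DC-like (5.72%), NK-like (4.46%), mature B-like (9.01%) or erythroid-like cells (9.17%). With 5 to 7 members compared in a gate, a single lower call cannot be read against these shares.

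**Figure D3:**
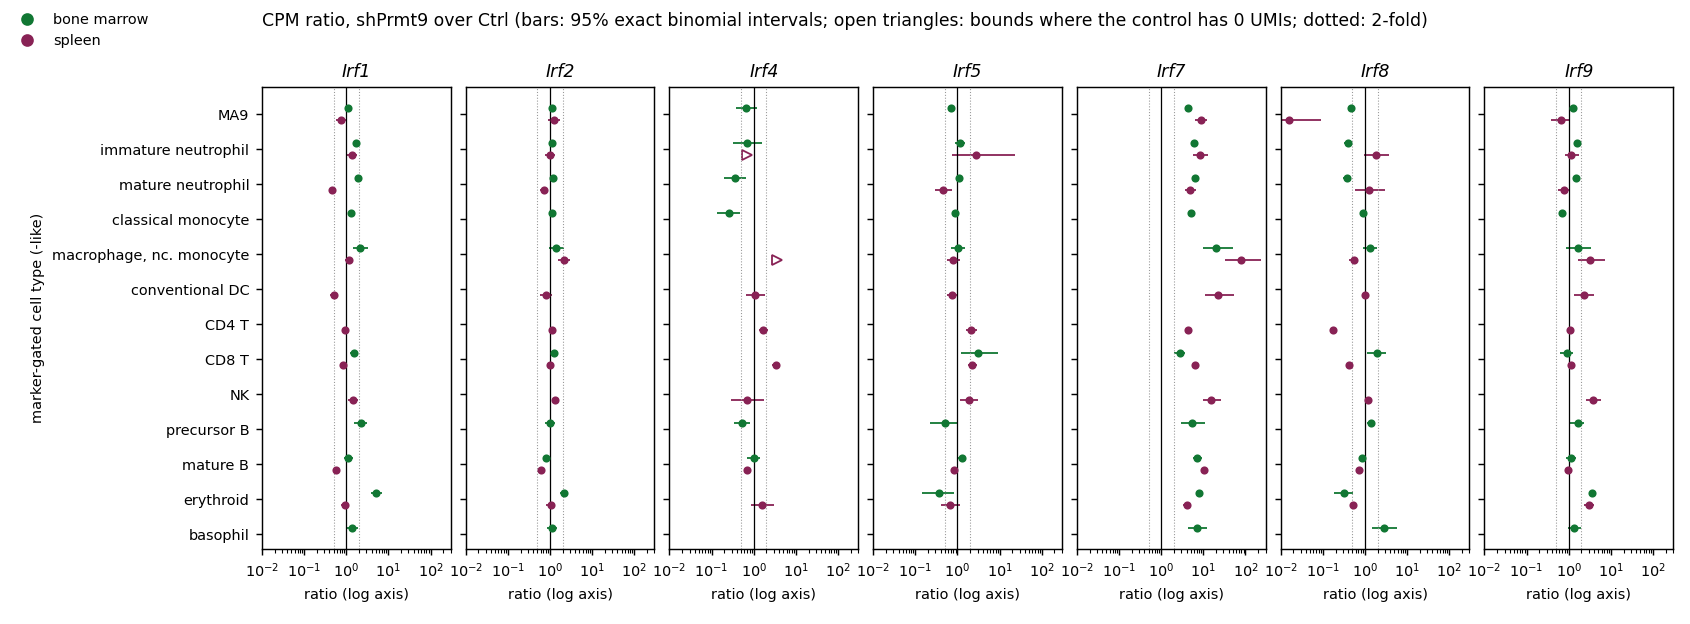
CPM ratio of shPrmt9 over Ctrl (log axis) for each member, with marker-gated cell types in rows, bone marrow in green and spleen in purple, bars for 95% exact binomial intervals, dotted lines at 2-fold and open triangles for bounds computed at 3 UMIs where the control had 0. The Irf7 points all lie beyond 2-fold, from 2.76 to 76.3, while points of the other members fall on both sides of 1.

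Irf9, the DNA-binding subunit of ISGF3, was higher in 1 gate of the marrow and 4 of the spleen. Erythroid-like cells had 42.8 CPM in BM-Ctrl and 154 CPM in BM-shPrmt9 (ratio 3.6, 3.07 to 4.23), and 29.1 and 86.3 CPM in the spleen libraries (ratio 2.97, 2.31 to 3.88), where 14.2% and 13.1% of genes were at least 2-fold higher. NK-like cells of the spleen had 23.5 and 89.7 CPM (ratio 3.81, 2.6 to 5.75, against 9.09% of genes), macrophage and non-classical monocyte-like cells 37.7 and 123 CPM from 9 and 69 UMIs (against 21.2%), and conventional DC-like cells 59.5 and 135 CPM (ratio 2.27, 1.36 to 3.98, against 19.2%). Elsewhere its ratios lay between 0.653 in splenic MA9-like and 1.63 in marrow macrophage and non-classical monocyte-like cells. In classical monocyte-like cells of the marrow Irf9 was 92.1 and 62.8 CPM, a ratio of 0.682 (0.585 to 0.793), in the gate in which Irf7 was 5.06 times as high. Markers of that gate differed in both directions, with Fn1 at 1130 and 333 CPM and Csf1r at 259 and 414 CPM. The part of its make-up in these ratios was not tested. With TMM scaling the conventional DC-like ratio was 1.84 and no longer passed 2-fold.

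Irf1 differed between the tissues. In the marrow its interval lay above 1 in 9 of 10 gates, and 3 passed 2-fold: erythroid-like cells at 12 and 62.1 CPM (ratio 5.18, 3.87 to 7.06), precursor B-like cells at 71.7 and 158 CPM (ratio 2.2, 1.57 to 3.07) and macrophage and non-classical monocyte-like cells at 126 and 265 CPM (ratio 2.1, 1.42 to 3.21). MA9-like cells had 22.4 and 24.9 CPM, a ratio of 1.11 (1.05 to 1.18). In the spleen the interval lay above 1 in 2 of 10 gates and below it in 5. Mature neutrophil-like cells had 1010 and 466 CPM, a ratio of 0.464 (0.403 to 0.534), mature B-like cells 387 and 226 CPM (ratio 0.585, 0.565 to 0.605) and conventional DC-like cells 560 and 290 CPM (ratio 0.517, 0.416 to 0.643). With TMM scaling the splenic mature neutrophil-like ratio was 0.559 (0.518 without cells holding a UMI of the B cell genes Cd79a or Ms4a1) and that of marrow macrophage and non-classical monocyte-like cells 1.82, neither past 2-fold. The same scaling shifted log2 ratios by 0.32 in marrow mature neutrophil-like and by -0.3 in splenic conventional DC-like cells. This puts their Irf1 ratios past 2-fold, higher in the former and lower in the latter. Among markers of the splenic mature neutrophil-like gate, Retnlg was 14300 and 2680 CPM and Il1b 2490 and 247 CPM, while S100a8, S100a9 and Mmp8 were higher in shPrmt9. The make-up of this gate differed between the libraries, and its part in the ratios of the gate was not tested. The splenic gates started from control levels 10.8 and 3.58 times those of the marrow gates for mature neutrophil-like and mature B-like cells, so that the shPrmt9 levels of the marrow, 175 and 122 CPM, were still below those of the spleen.

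Irf2, which competes with Irf1 for the same sites, stayed within 2-fold in 18 of 20 comparisons. It passed 2-fold in erythroid-like cells of the marrow, 30.8 and 66 CPM (ratio 2.14, 1.76 to 2.62), and in macrophage and non-classical monocyte-like cells of the spleen, 201 and 427 CPM (ratio 2.12, 1.55 to 2.96), and TMM scaling gave 1.76 in both. Mature B-like cells of the spleen had 359 and 226 CPM, a ratio of 0.629 (0.608 to 0.651), close to that of Irf1 in the same gate.

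In erythroid-like cells of the marrow Irf1, Irf2, Irf7 and Irf9 were all at least 2-fold higher, in a gate in which the median log2 ratio of all genes was 0.3. Hemoglobin genes held 63.9% of the UMIs of this gate in the Ctrl and 56% in the shPrmt9 library. With hemoglobin left out of the totals, an alternative chosen after seeing the data, the Irf2 ratio was 1.76 and no longer passed 2-fold, and that of Irf7 was 6.45. In the spleen hemoglobin held 77.1% and 77.3%, and Irf1 and Irf2 were at 0.914 and 1.04 times the control level.

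Irf8 was lower in shPrmt9 in the MA9-like cells and in the granulocytes of the marrow. MA9-like cells had 39.3 CPM in BM-Ctrl and 18.6 CPM in BM-shPrmt9 from 3975 and 1680 UMIs, a ratio of 0.473 (0.446 to 0.501). Immature neutrophil-like cells had 11.2 and 4.44 CPM (ratio 0.396, 0.311 to 0.505), mature neutrophil-like cells 15 and 5.57 CPM (ratio 0.372, 0.303 to 0.456) and erythroid-like cells 10.6 and 3.34 CPM (ratio 0.316, 0.185 to 0.526). The MA9-like ratio was 0.616 without the 5% of cells with most UMIs in each library, and the immature neutrophil-like ratio was 0.775. This cut was set over all kept cells, whose medians were 6668 and 8567.5 UMIs in the Ctrl and shPrmt9 marrow. MA9-like cells, with medians of 59878 and 57295 UMIs, thus lost more than 5% of their gate. With the mean of each cell's own CPM the ratios were 0.5 in MA9-like, 0.643 in immature neutrophil-like and 0.774 in erythroid-like cells, none of which passed 2-fold, the MA9-like one by less than the rounding. Cells that held a UMI of the B cell genes Cd79a or Ms4a1 made up 12.4% and 5.24% of MA9-like cells in BM-Ctrl and BM-shPrmt9 and 3.41% and 0.856% of mature neutrophil-like cells. Without them, again an alternative chosen after seeing the data, the ratios were 0.464 in MA9-like, 0.316 in immature neutrophil-like, 0.658 in mature neutrophil-like and 0.587 in erythroid-like cells.

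In the B-like, monocyte-like, macrophage, NK-like and conventional DC-like gates Irf8 was high. With gate totals as the scale no compared ratio there passed 2-fold, and the ratios lay on both sides of 1. Splenic macrophage and non-classical monocyte-like cells had 516 and 280 CPM (ratio 0.544, 0.427 to 0.694) and splenic mature B-like cells 709 and 512 CPM (ratio 0.723, 0.706 to 0.74). TMM scaling shifted the log2 ratios of this macrophage gate by -0.27, which puts its Irf8 ratio past 2-fold lower. Classical monocyte-like cells had 192 and 171 CPM (ratio 0.893), precursor B-like cells 225 and 311 CPM (ratio 1.38) and mature B-like cells 411 and 352 CPM (ratio 0.857) in the marrow, and NK-like cells of the spleen 1180 and 1410 CPM (ratio 1.2, 1.13 to 1.28). Splenic conventional DC-like cells had 557 CPM in both libraries (ratio 1, 0.829 to 1.21). Basophil-like cells of the marrow had 14.7 and 40.7 CPM, a ratio of 2.77 (1.45 to 5.71), but 98% of the 50 UMIs in BM-shPrmt9 came from 1 cell. Splenic MA9-like cells had 89 UMIs in Spleen-Ctrl, 43.8% of them from 1 cell, and 1 UMI in Spleen-shPrmt9, a ratio of 0.0156 (0.00039 to 0.0891), and 56% and 47.8% of these 25 and 23 cells held a UMI of Cd79a or Ms4a1.

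**Figure D4:**
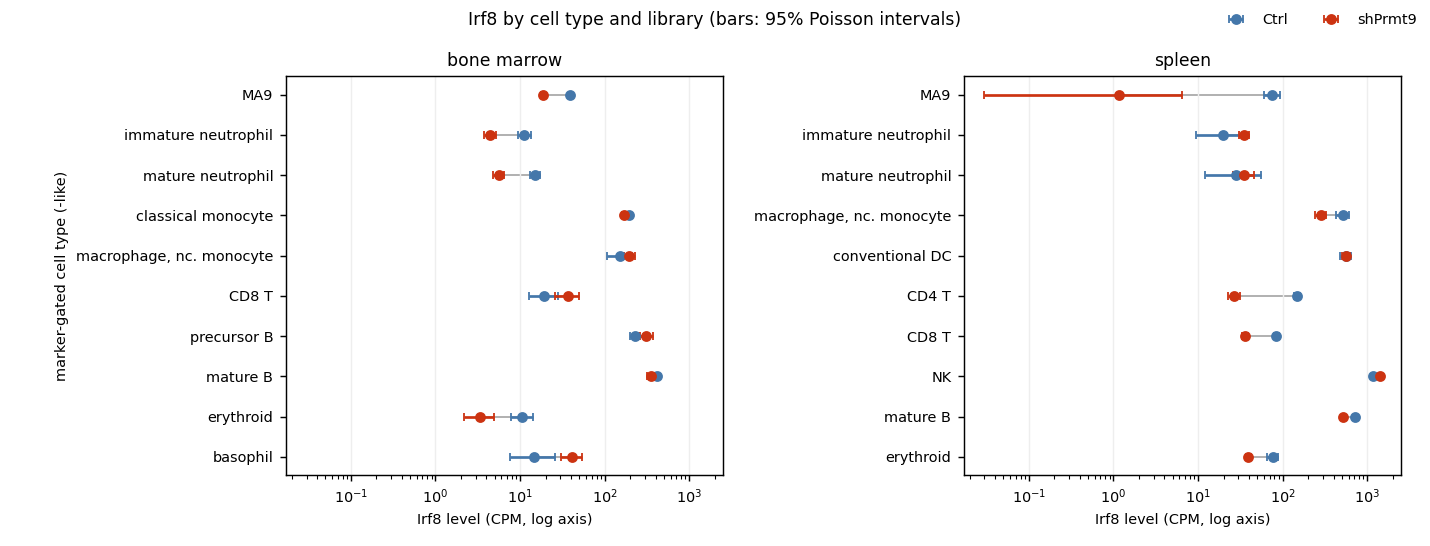
Irf8 level in CPM (log axis) by marker-gated cell type in bone marrow and spleen, with Ctrl in blue, shPrmt9 in red and bars for 95% Poisson intervals. The shPrmt9 point lies to the left in MA9-like cells, 39.3 and 18.6 CPM in the marrow, and in splenic macrophage and non-classical monocyte-like cells, 516 and 280 CPM, and both points coincide at 557 CPM in splenic conventional DC-like cells.

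In splenic T cells both Irf8 and RNA of B cell genes were lower in shPrmt9. CD4 T-like cells had 149 CPM of Irf8 in the control spleen and 26.7 CPM with shPrmt9 (ratio 0.179, 0.149 to 0.215), and CD8 T-like cells 84 and 35.8 CPM (ratio 0.426, 0.383 to 0.474). In the same gates the B cell receptor subunit Cd79a was at 250 and 30.7 CPM and at 207 and 29.5 CPM. Cells with a UMI of Cd79a or Ms4a1 were 38% and 15.8% of CD4 T-like and 44.6% and 19.5% of CD8 T-like cells. Without these cells Irf8 was 23.8 and 20.8 CPM in CD4 T-like cells, a ratio of 0.873 (0.608 to 1.27), and 40 and 15 CPM in CD8 T-like cells, a ratio of 0.376 (0.306 to 0.463). The CD4 T-like ratio no longer passed 2-fold, and the CD8 T-like ratio did. Cells in which neither B cell gene was captured can still hold B cell RNA. Mature B-like cells were 66.4% of the kept cells in Spleen-Ctrl and 12.4% in Spleen-shPrmt9. The part of such RNA in the remaining CD8 T-like ratio was not tested.

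Irf4 in CD8 T-like cells and Irf5 in both T cell gates of the spleen passed 2-fold higher, and Irf4 in CD4 T-like cells did not. Irf4, which T cells induce on antigen receptor signaling, was 10.5 CPM in CD8 T-like cells of the control and 34.9 CPM of the shPrmt9 spleen, a ratio of 3.33 (2.75 to 4.07), and 28.5 and 48.4 CPM in CD4 T-like cells, a ratio of 1.7 (1.35 to 2.15). Without cells holding a B cell UMI the values were 4.26 and 30.2 CPM in CD8 T-like cells (ratio 7.08, 4.67 to 11.2) and 11.6 and 50.6 CPM in CD4 T-like cells (ratio 4.35, 2.81 to 7.07). Irf5 was 8.32 and 18.8 CPM in CD8 T-like cells (ratio 2.26, 1.8 to 2.86) and 16.3 and 34.8 CPM in CD4 T-like cells (ratio 2.13, 1.59 to 2.9), and 5.62 and 4.64 times as high without those cells. Both genes are also expressed by B cells, at 51.4 and 34.9 CPM for Irf4 and 74.9 and 62.5 CPM for Irf5 in the splenic mature B-like gate.

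**Figure D5:**
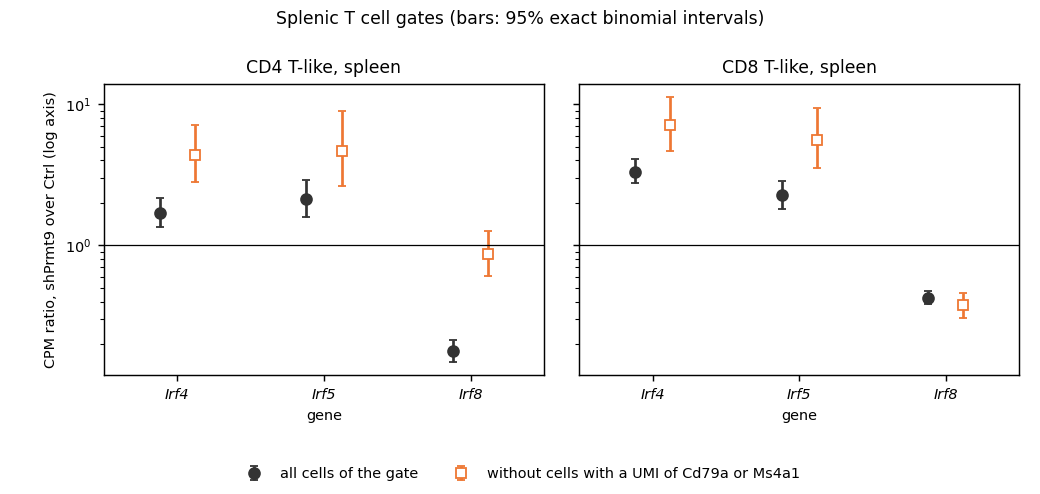
CPM ratio of shPrmt9 over Ctrl (log axis) for Irf4, Irf5 and Irf8 in splenic CD4 T-like and CD8 T-like cells, with all cells of the gate (filled circles) and without cells holding a UMI of Cd79a or Ms4a1 (open squares), and bars for 95% exact binomial intervals. Without these cells the Irf4 and Irf5 ratios were larger in both gates, and that of Irf8 in CD4 T-like cells was 0.873 in place of 0.179.

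Outside the T cells Irf4 was lower in 2 gates of the marrow. Classical monocyte-like cells, which also differed in their own markers, had 14 and 3.7 CPM (ratio 0.265, 0.137 to 0.471). Mature neutrophil-like cells had 1.92 and 0.68 CPM from 29 and 21 UMIs. Without cells holding a B cell UMI 5 and 18 UMIs gave a ratio of 1.68 (0.601 to 5.79). Precursor B-like cells had 114 and 61.1 CPM (ratio 0.535, 0.332 to 0.828). In splenic macrophage and non-classical monocyte-like cells Irf4 had 0 UMIs in Spleen-Ctrl and 25 in Spleen-shPrmt9, at least 3.55-fold higher against 3 UMIs, and 96% of the 25 came from 1 cell. Irf5 showed little difference where it was highest, with ratios of 0.882 and 1.01 in classical monocyte-like and macrophage and non-classical monocyte-like cells of the marrow and 0.756 and 0.791 in conventional DC-like and macrophage and non-classical monocyte-like cells of the spleen. It was lower in splenic mature neutrophil-like cells, whose gate differed in make-up, at 102 and 46.5 CPM (ratio 0.456, 0.292 to 0.73, and 0.55 with TMM scaling). In MA9-like marrow cells Irf5 was 9.06 and 6.27 CPM (ratio 0.692, 0.622 to 0.769). Its other calls rested on 7 and 15 UMIs in marrow CD8 T-like cells (ratio 3.09), 2 and 72 in splenic immature neutrophil-like cells (ratio 2.71, 0.725 to 22.8), 65 and 10 in precursor B-like cells (ratio 0.497) and 16 and 10 in marrow erythroid-like cells (ratio 0.355).

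Another list of 21 genes around the family was read in the same gates, covering interferons, adaptors and kinases of nucleic acid sensing, Irf3, the ISGF3 subunit Stat2, partner factors of Irf4 and Irf8 and Irf2-binding proteins. In the marrow 14 of 134 compared pairs were at least 2-fold higher and 10 lower, and in the spleen 14 of 137 were higher and 13 lower. These are 10.4% and 7.46% of the marrow pairs and 10.2% and 9.49% of the spleen pairs, where a mean over the gates of the same pairs of 7.37% and 6.22%, and of 9.85% and 8.34%, of all compared genes passed in the same directions. The list as a whole was near this background. Stat2 was at least 2-fold higher in 6 of 10 gates of the marrow and 4 of 10 of the spleen. It was 16.4 and 64.8 CPM in marrow mature neutrophil-like cells (ratio 3.95, 3.46 to 4.52) and 11.2 and 14.2 CPM in MA9-like cells (ratio 1.27, 1.18 to 1.38), and in splenic mature neutrophil-like cells it was 94.9 and 110 CPM (ratio 1.16, 0.767 to 1.81). Irf3, the constitutive partner of Irf7, was between 0.618 and 1.33 times the control level in the marrow and between 0.383 and 1.55 times in the spleen. Of the partners of Irf4 and Irf8, 1 of 41 pairs was higher and 6 lower in the marrow and 3 of 45 higher and 6 lower in the spleen.

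Type I interferon genes were nearly without UMIs. The 13 Ifna genes gave 0, 0, 1 and 6 UMIs over all cells of the libraries in the same order (marrow, then spleen, Ctrl first), and Ifnb1 gave 1 UMI in BM-shPrmt9 and 2 in Spleen-shPrmt9. Ifng, the interferon of T and NK cells, was 4 and 202 CPM in marrow CD8 T-like cells. This ratio of 50.5 rests on 6 and 210 UMIs, in a gate where 4.22% of genes were at least 2-fold higher. In the spleen Ifng was at least 2-fold higher in 4 of 5 compared gates, with ratios of 2.4 to 5.29 where both libraries had UMIs. Splenic NK-like cells had 127 and 327 CPM, a ratio of 2.58, against 9.09% of genes.

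Over 46 sums of a cell type in a library, the genes whose log2(CPM + 1) followed each member most closely were sought among 10177 genes, as a description without a test, since the sums share libraries. Samhd1 (Pearson r = 0.912) and Tap1 were among the genes closest to Irf1. Irf7 was closest to Gm13822 (r = 0.873), Xaf1 and Usp18. For Irf9 they were Trim12c (r = 0.785), Trim34a and Trim30a, and for Irf2 Washc4 (r = 0.905), 9930111J21Rik2 and Trim5. Irf8 was closest to Slc9a7 (r = 0.828), Dusp22 and Sdc4, Irf5 to Ctss (r = 0.876), Cd86 and Malt1, and Irf4 to Ccr7 (r = 0.783), Slamf6 and Btla.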

How the data were processed

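Cells of bone marrow and spleen were profiled with 10x Genomics 3′ libraries, 1 for each of 4 groups. The authors deposited whole-number UMI counts for each gene and cell, as Cell Ranger matrices on mm10 (version 6.1.1 per the submitters' processing notes, 6.0.2 per the file headers; the annotation is not given in the sources used here). No value was normalized before deposit. Groups were taken from the titles. Barcodes under 200 genes or over 20% mitochondrial UMIs were left out.

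A cell was gated by the highest marker score, the mean over a list of log2(1 + counts per 10000 UMIs) each divided by its 75th percentile among positive cells and capped at 1, with a score of at least 0.25, a margin of 0.1 over the next lineage and at least 2 markers of its list (3 leukemia markers for MA9-like cells). The scoring rule was set after the matrices were seen. No doublet caller was run, and 216 to 976 cells per library with 2 close lineage scores were left outside the gates. UMIs were summed per gate and library and divided by the gate's total (CPM). Levels carry exact Poisson intervals and ratios exact conditional binomial (Clopper-Pearson) intervals, at 95%, for counting error only, and a count of 0 was set to 3 UMIs for a bound. The functions were tested on simulated data. Python 3.11.15, scipy 1.17.1, edgeR 4.0.16 and DESeq2 1.42.0 were used, the last 2 for scaling factors only. The named genes are the members, 21 genes around them and the closest genes of each, up to 3. Some genes are not reported here. The members and lists were chosen with earlier results of these data known. For the 2 alternatives chosen after seeing the data, hemoglobin genes or cells with B cell UMIs were left out. The other alternatives were 2 scalings, per-cell means, leaving out the top cell or the deepest 5% of each library, a stricter gate, stricter cell filters and no UMI minimum.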

Additional observations from a re-analysis of the deposited data

Results flagged for a closer look

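For 3 members the ratio of shPrmt9 over Ctrl lay on opposite sides of 1 in marrow and spleen with both counting intervals excluding 1, in 2 cell types. The difference between the tissues was not tested, since each group is 1 library. Irf1 in mature neutrophil-like cells had ratios of 1.87 in the marrow and 0.464 in the spleen, and Irf2 in the same gates 1.2 and 0.708. The splenic gate also differed in make-up between its libraries, with Retnlg at 14300 and 2680 CPM. Irf1 in CD8 T-like cells had 1.52 and 0.851. Irf8 in CD8 T-like cells had 1.89, from 29 and 38 UMIs, and 0.426. Without cells holding a UMI of Cd79a or Ms4a1 these were 3.59 (1.9 to 7.17, from 14 and 38 UMIs), past 2-fold, and 0.376. The cells kept can still hold B cell RNA, and its part in these ratios was not tested. Cells outside every gate entered no comparison, and Irf7 was higher there too, by a ratio of 5.76 in the marrow (22.7 and 131 CPM) and 4.07 in the spleen (66.5 and 270 CPM).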

How the results depend on the processing

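No paired analysis was possible because each group is 1 library. The 4 counts of member and cell type pairs past 2-fold kept within 1.5 times under the alternatives tried, except that 4 pairs rather than 8 were lower in the marrow with per-cell means, and 13 rather than 20 were higher in the spleen with 1 more marker required, a gate that left fewer cell types with enough cells (107 pairs compared rather than 132). Over these alternatives 15 to 17 pairs were higher and 4 to 9 lower in the marrow, and 13 to 21 and 4 to 7 in the spleen. Irf7 was at least 2-fold higher wherever it could be compared, with ratios of 2.68 to 23 in the marrow and 3.4 to 88.5 in the spleen. Of 50 called pairs, 14, none of them Irf7, lost the call under at least 1 alternative. A further 25, 15 of them Irf7, kept it under every alternative that applied, and 11 kept it where they could be compared but had too few cells or UMIs under at least 1, among them Irf8 in basophil-like cells without the cell with most UMIs. Among the called pairs only Irf4 in marrow mature neutrophil-like cells changed direction, from 0.354 to 1.68 without cells holding a B cell UMI. TMM and median-of-ratios scaling moved the log2 ratios of a gate by -0.31 to 0.32, by over 0.1 in 12 of 20 gates with TMM. Each lost 6 calls and reversed none, and they gained 3 and 4 calls in that order. The gates with under 30 cells and the genes under 20 UMIs limit what could be seen.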

Other observations

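Some gates had too few cells in 1 library to be compared and are given as values. Plasmacytoid DC-like cells, 113 in BM-Ctrl and 15 in BM-shPrmt9, had 254 and 93 UMIs of Irf7, a ratio of 2.48 (1.93 to 3.15), and 3364 and 530 UMIs of Irf8, a ratio of 1.07 (0.97 to 1.17). Plasma cell-like cells of the spleen, 19 and 127, had 16 and 544 UMIs of Irf4, a ratio of 3.07 (1.88 to 5.41), and 13 and 801 UMIs of Irf7, a ratio of 5.57 (3.24 to 10.5). Conventional DC-like cells of the marrow, 18 and 25, had 40 and 269 UMIs of Irf8, a ratio of 4.22 (3.02 to 6.04), and in BM-shPrmt9 Cd209a and Clec10a were at 0 UMIs where BM-Ctrl had 181 and 354 CPM. NK-like cells of the marrow, 49 and 18, had 13 and 9 UMIs of Irf7, a ratio of 1.46 (0.55 to 3.69).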
